A study of Mus musculus with 24 samples.

Results

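Hepatocytes that lacked both Shp2 and IkkB were compared with hepatocytes that lacked IkkB alone. By its labels the comparison is of loss of Shp2 where IkkB was already missing. The genes described are the 12321 of 24319 listed in the authors' deposited hepatocyte table for which the authors' program, Cuffdiff, carried out a test of this pair and the larger of the 2 values was at least 0.1. The study measured polyA RNA by sequencing in whole liver and in isolated hepatocytes, the main epithelial cell of the liver, in 4 genotypes with 3 biological replicates each. All mice were 2-month-old males, and the strain is given as C57/BL6. The IkkB KO mice were Alb-Cre+;IkkBf/f and the Double KO mice were Alb-Cre+;IkkBf/f;Shp2f/f, so both groups carried the Cre transgene and the IkkB deletion. The wild-type (WT) mice and the Alb-Cre+;Shp2f/f mice (Shp2 KO) are used beside them. The albumin promoter drives Cre mainly in hepatocytes, so most other liver cells should keep both genes. The time of day at which samples were collected is not in the labels, so its part in the differences between genotypes was not tested.

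Shp2 is the tyrosine phosphatase encoded by Ptpn11, and it passes signals from growth factor receptors to Ras and the kinase Erk. IkkB, encoded by Ikbkb, is the kinase that marks the inhibitor IkB for degradation and so frees the NF-kB transcription factors. In the liver both routes act in survival, inflammation and regeneration, and hepatocytes also run a circadian clock in which Arntl and its partners Clock or Npas2 switch on the Per, Cry and D-box factor genes that feed back on them. The title of the series names both pathways, circadian deregulation and hepatocarcinogenesis as its subject.

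Each genotype has 1 value per gene, in FPKM (sequenced fragments scaled to transcript length and to library size), with no value per replicate, so no SD can be given and the depth of the libraries is unknown. The measure of replicate error is the q-value of the authors' deposited table, and "rose", "fell" and "called" below are used of genes with a q-value under 0.05 in it. Where 4 values of a gene stand in a row, they are those of IkkB KO, Double KO, WT and Shp2 KO in that order. Effects are given as log2(Double KO + 1) minus log2(IkkB KO + 1), on FPKM, which understates the change of genes with low values. In the authors' deposited table the smallest q-value was 0.00048, shared by the 477 genes at the smallest p-value of 5e-05. Every tested gene was above the minimum of 0.1, and Emp1, at 0.313 in Double KO and 0.165 in IkkB KO, had the lowest larger value. At the q-value threshold, Rcl1 (98.2 in IkkB KO and 67.9 in Double KO) and Bet1l (22.1 and 15.2) lay just inside with q = 0.0498, while Srd5a1 (57.6 and 83.8) and Degs1 (51.2 and 73.1) lay just outside with q = 0.0503.

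The targeted transcripts matched the labels. Ptpn11 was 14.5 in IkkB KO and 5.77 in Double KO and fell by 1.19 on the log2 scale (q = 0.00048), and its level was 16.3 in WT and 4.46 in Shp2 KO. Ikbkb was 17.3 in WT and 15.1 in Shp2 KO, against 7.16 in IkkB KO and 5.29 in Double KO, and the last pair did not pass the test (q = 0.135). Of the hepatocyte markers, 5 had the status that marks genes too abundant to test: Alb, Trf, Serpina1a and Ahsg were listed at 0 in both genotypes, and Apoa1 at 0 in IkkB KO and 7295 in Double KO. Of the 7 tested by Cuffdiff, 0 were called, 0 had an unadjusted p-value under 0.05, and the median effect was -0.23. All 7 effects were negative, from -0.58 to -0.02.

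Between IkkB KO and Double KO, 1402 of the 12321 tested genes were called, or 11.4%. Of these, 709 rose (5.75% of tested genes) and 693 fell (5.62%). The median effect over all tested genes was -0.01. Among called genes, the FPKM value at least doubled in 408 and was at least halved in 342. The plot of levels shows called genes on both sides of the diagonal over the whole range of expression. In addition, 22 tested genes were listed at 0 in 1 genotype and at 10 or more in the other, 21 of them short Mir and Snord RNAs, and 0 of the 22 were called.

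**Figure D1:**
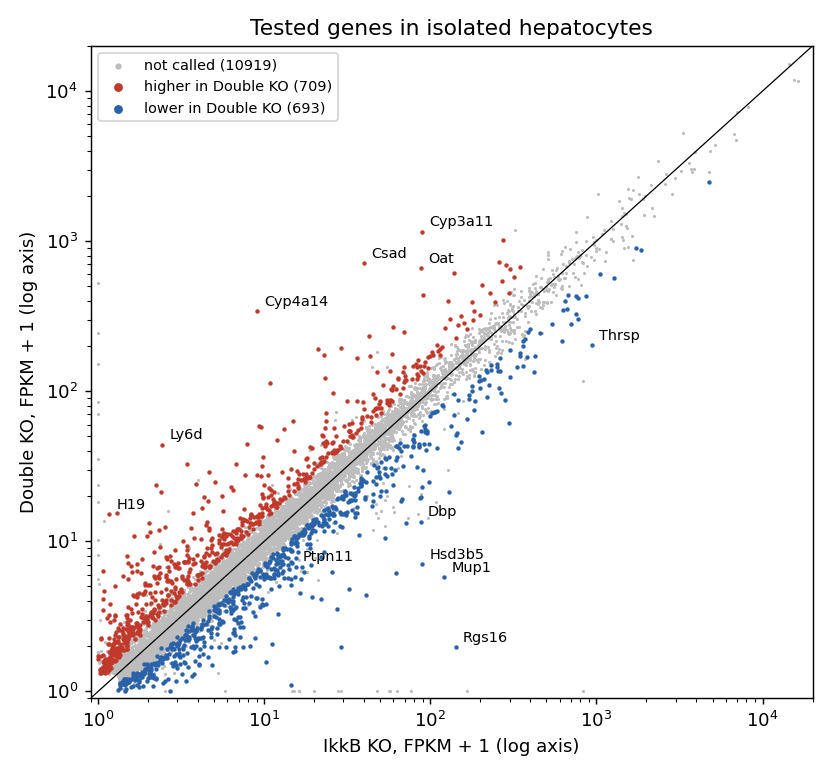
Each point is a tested gene, with its level in IkkB KO hepatocytes on the horizontal axis and in Double KO hepatocytes on the vertical axis, both as FPKM + 1 on log axes; each value is the authors' estimate over 3 samples. The 709 called genes that were higher in Double KO are red, the 693 that were lower are blue, and the line marks equal values; Cyp4a14 and Rgs16 lie farthest from it among the named genes.

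The 12 largest rises with a value of at least 1 were led by enzymes of fat and drug metabolism. Cyp4a14, a fatty acid hydroxylase, was 8.01 in IkkB KO and 342 in Double KO, beside 9.77 in WT and 344 in Shp2 KO. The rise from IkkB KO to Double KO was 38.0-fold on the value + 1 scale. Ly6d, a membrane-anchored surface protein, rose from 1.42 to 43.1. Csad, which makes the taurine precursor hypotaurine, rose from 38.8 to 711, and Cyp3a11, a major drug-metabolising cytochrome, from 88.0 to 1155. These genes were high in both genotypes that lack Shp2 and low in WT and IkkB KO, since Csad was 45.0 in WT and 544 in Shp2 KO, and Cyp3a11 was 175 in WT and 1645 in Shp2 KO. Also among the 12 were H19, an imprinted non-coding RNA of fetal liver, the cytochromes Cyp2c69, Cyp2c38 and Cyp4a12b, the phosphatase Phospho1, the fatty aldehyde dehydrogenase Aldh3a2, the acyl-CoA thioesterase Acot1 and the acute phase protein Orm2, with effects from 2.92 to 3.70.

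The largest fall was that of Rgs16, a regulator of G protein signalling. It was 141 in IkkB KO and 0.967 in Double KO, beside 13.8 in WT and 4.54 in Shp2 KO, so the genotype with the highest level and the one with the lowest were the 2 compared here (effect -6.18). Mup1, a major urinary protein, fell from 119.9 to 4.74, Hsd3b5, a steroid dehydrogenase of male liver, from 88.1 to 6.02, and Ugt2b38, a glucuronosyltransferase, from 13.5 to 0.108. The sulfotransferase Sult5a1 fell from 61.2 to 5.16, the serpin Serpina12 (vaspin) from 26.3 to 2.56, and the organic anion carrier Slco1a1 from 129 to 20.2. Mup12, Mup16 and Mup17 were also among the 12 largest falls, but Mup genes are near-identical copies and reads could be assigned to any of them.

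**Figure D2:**
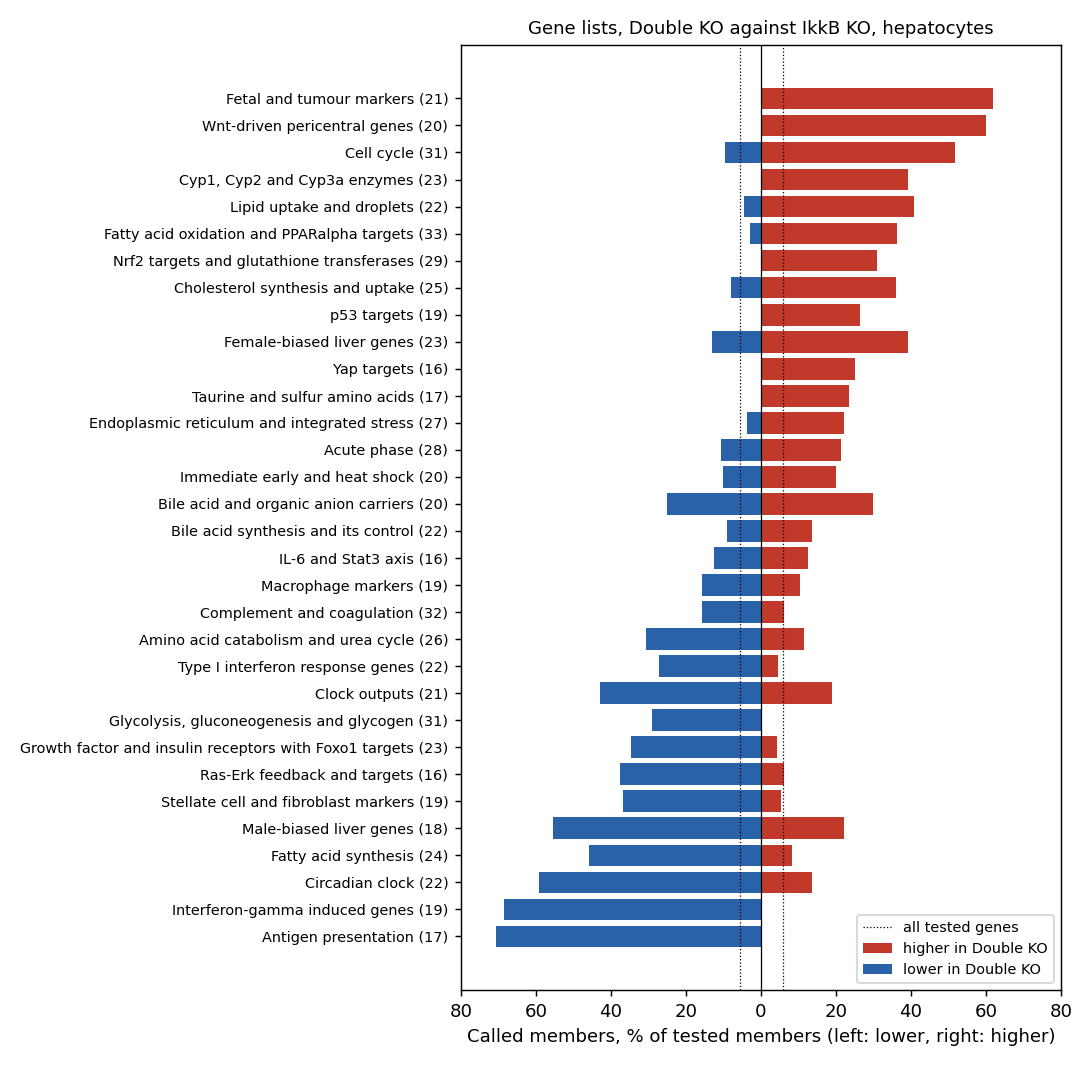
Bars give, for each gene list with at least 4 called members, the share of tested members that was called higher (red, to the right) or lower (blue, to the left) in Double KO than in IkkB KO hepatocytes, in percent; the number of tested members is in brackets, and dotted lines mark 5.75% and 5.62% of all tested genes. Fetal and tumour markers and Wnt-driven pericentral genes have the longest bars to the right, and antigen presentation and interferon-gamma induced genes the longest to the left.

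The circadian clock differed in most of its measured parts. Of 22 tested clock genes, 3 rose and 13 fell, with a median effect of -0.59, against 5.75% and 5.62% of all tested genes and a median of -0.01. The 3 that rose were Arntl (Bmal1), the central activator, its partner Npas2, and Nfil3, a repressor that binds D-box sites. The 13 that fell include targets of Arntl, among them the repressors Per1, Per2, Per3 and Ciart and the D-box activators Dbp and Tef.

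Arntl was 1.74 in IkkB KO and 6.44 in Double KO, beside 4.81 in WT and 1.51 in Shp2 KO (q = 0.00048). Nfil3 was 8.09, 26.5, 21.96 and 10.05 (q = 0.00048), and Npas2 was 0.146, 0.407, 0.483 and 0.0468 (q = 0.0487). For these 3 genes both single knockouts were low, and WT and Double KO were high. Clock, the other partner of Arntl, was 4.63 in IkkB KO and 6.05 in Double KO and did not pass the test (q = 0.224).

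Per2, a repressor of the clock, was 7.22 in IkkB KO and 1.0002 in Double KO, beside 5.78 in WT and 4.76 in Shp2 KO. Per3 was 5.46, 0.834, 4.89 and 6.38, and the repressor Ciart was 10.2, 1.08, 7.32 and 9.80. The single knockouts lay near or above WT for Per3 and Ciart, and Double KO was the lowest of the 4 genotypes for all 3. Dbp, an activator of many rhythmic liver genes, was 86.5, 12.5, 50.2 and 82.2, with the largest effect of the list (-2.69) but a higher q-value than most (0.0301). Tef, related to Dbp, fell from 49.1 to 18.9, and Bhlhe40 and Bhlhe41 (Dec1 and Dec2), repressors of Arntl targets, from 54.2 to 26.3 and from 1.18 to 0.236. Smaller falls were those of Per1 (9.45 to 4.81), Cry2 (11.9 to 7.07), Nr1d2 (18.4 to 11.6), Hlf (7.67 to 4.85) and Cry1 (4.07 to 2.50). Nr1d1 (Rev-erb alpha), the repressor of Arntl, was 37.4 and 39.2 and was not called (q = 0.894), nor were Rora, Csnk1d and Csnk1e.

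With the authors' Cuffdiff p-values adjusted by the Benjamini-Hochberg method over this pair alone, the q-values of Dbp (0.0684), Cry1 (0.0970) and Npas2 (0.106) no longer passed 0.05. That setting called 2 clock genes higher and 11 lower. Rhythmic outputs of the clock went both ways, with 4 of 21 tested members higher and 9 lower. Lpin1, an enzyme of fat synthesis, fell from 97.6 to 23.7, the glycogen synthase Gys2 from 203 to 52.3, the uridine phosphorylase Upp2 from 279 to 86.9 and Ccrn4l (nocturnin) from 20.9 to 6.85.

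**Figure D3:**
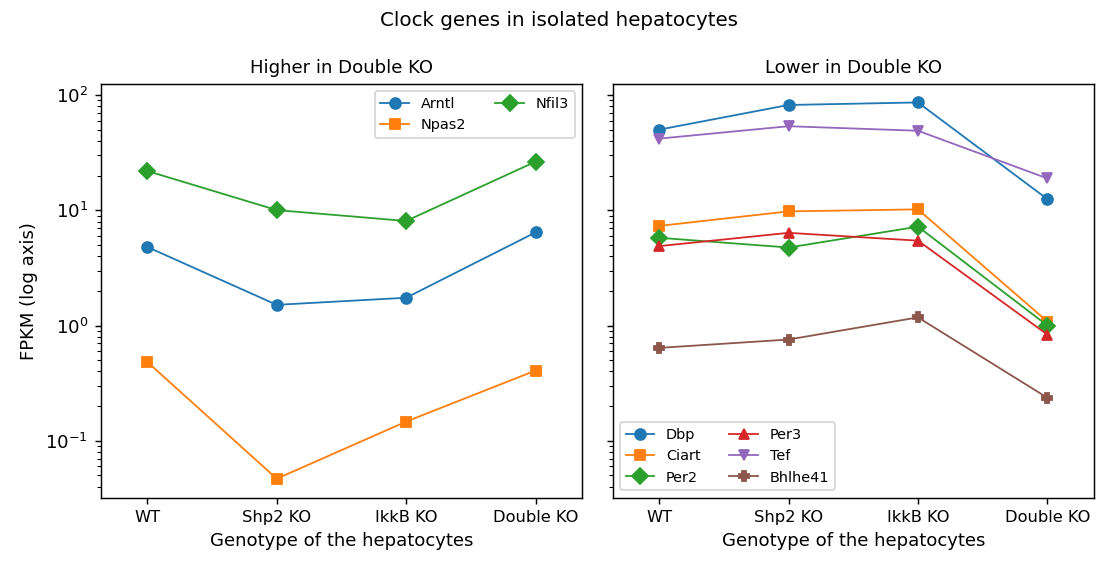
Levels of 9 clock genes in hepatocytes of the 4 genotypes, in FPKM on a log axis; each point is the authors' estimate over 3 samples, and lines join the values of a gene. On the left, Arntl, Npas2 and Nfil3 are lower in both single knockouts than in WT and Double KO; on the right, Dbp, Ciart, Per2, Per3, Tef and Bhlhe41 are lowest in Double KO.

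The promoters of 4 clock genes that moved are shown for 2 short elements that clock proteins bind. RefSeq promoter windows (build GRCm38.p6, from 250 bases before to 50 bases after the start site) were matched by symbol for 17 of the clock genes. The E-box CACGTG, the sequence bound by Arntl with Clock, is its own reverse complement and was found in the windows of 5 of the 17, Per1, Cry1, Ciart, Bhlhe41 and Tef, and all 5 fell. The E-box is present in 9.18% of the 17185 genes with a window. Of all 22 tested clock genes 13 fell, and the windows of Per3 and Dbp, which fell too, hold no E-box. TAGGTCA, the core of the element bound by Ror and Rev-erb proteins, was found on either strand in Arntl and Nfil3, which both rose, and in 2.67% of all genes. Ciart (chr3:95882179-95882478, minus strand) holds 3 E-boxes and Per1 (chr11:69098699-69098998, plus strand) holds 1, in capitals below.
Ciart: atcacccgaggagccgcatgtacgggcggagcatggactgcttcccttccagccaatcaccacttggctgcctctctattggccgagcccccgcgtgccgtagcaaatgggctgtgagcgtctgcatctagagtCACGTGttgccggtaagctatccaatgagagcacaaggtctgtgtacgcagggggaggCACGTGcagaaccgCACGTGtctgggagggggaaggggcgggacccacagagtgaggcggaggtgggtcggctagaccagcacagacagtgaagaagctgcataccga
Per1: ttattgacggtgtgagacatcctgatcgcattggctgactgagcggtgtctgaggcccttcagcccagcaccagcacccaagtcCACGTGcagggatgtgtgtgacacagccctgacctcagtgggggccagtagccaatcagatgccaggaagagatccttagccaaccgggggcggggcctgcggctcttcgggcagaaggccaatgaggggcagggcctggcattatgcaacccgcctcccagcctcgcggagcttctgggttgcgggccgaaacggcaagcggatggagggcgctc
Arntl (chr7:113207261-113207560, plus strand) and Nfil3 (chr13:52980990-52981289, minus strand) hold the Ror and Rev-erb core, in capitals; in Nfil3 it lies on the opposite strand and reads as its reverse complement.
Arntl: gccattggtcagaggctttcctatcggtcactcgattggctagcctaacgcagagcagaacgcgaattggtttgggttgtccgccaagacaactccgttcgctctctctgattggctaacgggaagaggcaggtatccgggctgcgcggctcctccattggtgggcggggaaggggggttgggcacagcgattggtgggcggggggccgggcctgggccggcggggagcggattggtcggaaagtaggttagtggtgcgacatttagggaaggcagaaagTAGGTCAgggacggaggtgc
Nfil3: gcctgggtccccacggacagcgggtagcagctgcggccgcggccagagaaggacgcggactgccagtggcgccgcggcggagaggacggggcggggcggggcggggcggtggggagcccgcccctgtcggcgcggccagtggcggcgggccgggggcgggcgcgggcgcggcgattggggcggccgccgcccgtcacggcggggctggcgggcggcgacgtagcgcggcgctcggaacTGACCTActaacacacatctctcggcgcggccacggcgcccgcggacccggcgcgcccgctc
These motifs, with 7 others, were chosen with the expression values known, and a match is a description of letters, not a bound site. The others searched on both strands were TGGGTCA (in 4.37% of genes), TTCNNNGAA (9.28%), TCACNCCAC (1.45%), TTATGNAA (3.75%), TTANNTAA (6.13%), the PPAR element (0.431%) and the core of the interferon-stimulated element (3.90%), which is GAAA, any 2 bases and GAAA again. In the clock windows, the D-box forms TTATGNAA (Per1 and Per3) and TTANNTAA (Per3 and Tef) and the sequence TTCNNNGAA (Per1 and Dbp) were each found in 2 genes, which fell, and the PPAR element in 1, Clock, which was not called. The remaining 3 motifs were found in 0 of the 17.

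Genes induced by interferon-gamma were lower in Double KO. Of 19 tested, 0 rose and 13 fell, all 19 effects were negative, and the median effect was -1.14. They include GTPases that act against intracellular microbes (Igtp, Iigp1, Irgm2, Gbp3), subunits of the immunoproteasome (Psmb8, Psmb9) and the peptide transporter Tap1. Igtp was 88.9 in IkkB KO and 29.1 in Double KO, beside 40.4 in WT and 17.4 in Shp2 KO. Gbp3 was 11.1, 2.29, 4.15 and 2.02, and Psmb9 was 108, 40.6, 51.3 and 38.1. For these 3 genes IkkB KO was the highest of the genotypes, and Double KO lay below WT. Ifng itself was below 0.1 in both genotypes and untested.

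The core of the interferon-stimulated element, 2 copies of GAAA with any 2 bases between them, was found on either strand in the windows of 8 of the 15 list members with a RefSeq promoter, of which 5 fell and 3 were not called. TTCNNNGAA, the gamma-activated sequence, was likewise found in 8 of the 15, of which 4 fell, 3 were not called and 1 was untested. Of the whole list, 13 of 19 tested members fell. These motifs were present in 3.90% and 9.28% of all genes with a window, in that order. The windows of Igtp (chr11:58199306-58199605, plus strand) and Gbp3 (chr3:142559794-142560093, plus strand) are shown as 2 of the 5 members that hold a match and fell, with the motif in capitals; Gbp3 holds 2 overlapping matches on the opposite strand.
Igtp: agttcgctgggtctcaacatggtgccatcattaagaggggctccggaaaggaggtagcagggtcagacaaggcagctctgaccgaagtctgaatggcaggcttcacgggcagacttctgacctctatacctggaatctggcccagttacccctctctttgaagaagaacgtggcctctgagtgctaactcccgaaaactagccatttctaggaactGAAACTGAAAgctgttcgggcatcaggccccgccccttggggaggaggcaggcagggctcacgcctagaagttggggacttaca
Gbp3: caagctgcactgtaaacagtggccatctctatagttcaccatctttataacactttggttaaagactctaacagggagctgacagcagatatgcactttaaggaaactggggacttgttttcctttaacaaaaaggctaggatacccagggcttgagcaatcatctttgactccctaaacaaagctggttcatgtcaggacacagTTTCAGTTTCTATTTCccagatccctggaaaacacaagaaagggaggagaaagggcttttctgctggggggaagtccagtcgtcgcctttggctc

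Antigen presentation genes fell as well, 12 of 17 tested with 0 rising and a median effect of -1.18. The class II molecules, which present peptides to helper T cells, had the largest effects. H2-Eb1 was 52.5 in IkkB KO and 9.52 in Double KO, beside 6.91 in WT and 7.23 in Shp2 KO, and H2-Ab1 was 86.7, 18.8, 15.4 and 14.5. H2-Aa fell from 87.9 to 21.9, and Cd74, the chain that guides class II assembly, from 153 to 44.6. IkkB KO alone stood out for H2-Eb1 and H2-Ab1, and Double KO lay near WT. Class II genes are abundant in immune cells, and in bulk samples fewer cells of a type and less RNA per cell cannot be told apart. Type I interferon response genes had 1 of 22 tested members higher (Xaf1, 3.34 to 5.75) and 6 lower, with a median effect of -0.15. Among the 6 were Ifi44 (2.86 to 1.02), Oasl2 (3.18 to 1.59) and Irf7 (47.7 to 30.1).

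Some transcripts of other liver cells moved between the same 2 genotypes, where 5.75% of all tested genes rose and 5.62% fell. The summed level of 20 stellate cell and fibroblast markers was 262 in IkkB KO and 134 in Double KO, beside 79.6 in WT and 127 in Shp2 KO, with 1 of 19 tested members higher and 7 lower. Dcn, a matrix proteoglycan, fell from 84.8 to 41.6 and Ecm1 from 81.6 to 30.3. Together Dcn and Ecm1 made up most of both sums and of their difference. Under 1 in both genotypes were 4 of the 20 members. Lrat, which makes the retinyl esters that stellate cells store, fell from 4.31 to 2.04. Col1a1, the main fibrillar collagen, rose from 0.794 to 1.79. Macrophage markers summed to 454 in IkkB KO and 451 in Double KO, beside 176 in WT and 366 in Shp2 KO. Of 19 tested macrophage markers, 2 were higher and 3 lower, and 0 of them were at 0. The scavenger receptor Marco fell from 21.9 to 7.43, Mpeg1 from 39.5 to 18.7 and Aif1 from 10.1 to 4.70, while lysozyme (Lyz2) rose from 22.2 to 42.0 and Folr2 from 10.4 to 17.1. Endothelial markers summed to 130.2 and 118, beside 67.1 in WT and 75.5 in Shp2 KO. Of 17 tested, 1 was higher and 1 lower, near the shares of all tested genes. Dendritic cell markers summed to 3.17 and 1.96 (Clec9a fell from 1.07 to 0.515). T and NK cell markers summed to 3.54 and 1.22 (2 of 4 tested fell), with all 13 of them under 1 in both genotypes. Bile duct markers summed to 35.4 and 66.1, with 3 of 10 tested higher, including Spp1 (25.4 to 55.7). Spp1 alone made up most of both sums and nearly all of their difference, and 9 of the 13 members were under 1 in both genotypes. Neutrophil markers summed to 3.39 and 3.22, B and plasma cell markers to 1.79 and 1.32, pancreatic acinar markers to 13.05 and 7.09, and erythroid markers to 77.7 and 121, with 0, 0, 1 (Cela1, lower) and 1 (Alas2, higher) called. Under 1 in both genotypes were 9 of 11 neutrophil, 8 of 8 B and plasma cell, 7 of 9 acinar and 6 of 7 erythroid markers. The erythroid sum was nearly all Alas2, so it describes that gene and not the list. The part of these cells in the fall of the antigen presentation and interferon genes was not tested.

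Feedback genes and targets of the Ras-Erk pathway fell more often than they rose. Of 16 tested targets, 6 fell and 1 rose, with a median effect of -0.30. Dusp6, a phosphatase that inactivates Erk, was 14.4 in IkkB KO and 4.82 in Double KO, beside 8.64 in WT and 3.40 in Shp2 KO. Spry4, an inhibitor upstream of Ras, was 2.29, 0.574, 2.78 and 0.375, and its relatives Spred2 and Spred1 fell from 2.43 to 0.793 and from 2.05 to 1.03. For these 4 genes both genotypes without Shp2 lay below both with it. Cyclin D1 (Ccnd1) fell from 13.4 to 7.67 and Dusp4 from 1.22 to 0.417, while Myc rose from 3.90 to 6.39 with q close to the threshold (0.0492). Egr1 (5.39 and 5.50), Phlda1 (58.3 and 47.9), Etv5 (0.685 and 0.347) and Spry2 (0.745 and 0.402) were not called, nor were Spry1, Ier3, Emp1, Epha2 and Rasa2.

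Among Shp2 adaptors and Ras-Erk kinases, 3 of 23 tested fell and 0 rose, against 5.62% and 5.75% of all tested genes. One of the 3 was Ptpn11, the deleted gene itself. The others were the insulin receptor substrate Irs2 (6.42 to 3.23) and the kinase Rps6ka1. Rps6ka1 lost its call with Benjamini-Hochberg adjustment over this pair alone (Cuffdiff p adjusted to 0.0926). Growth factor and insulin receptors with Foxo1 targets fell in 8 of 23 tested cases and rose in 1. Fgfr2, a fibroblast growth factor receptor, was 15.6 in IkkB KO and 4.58 in Double KO, beside 13.1 in WT and 3.19 in Shp2 KO, and the epidermal growth factor receptor Egfr fell from 178 to 99.0. By contrast the IKK, Rel and IkB genes had 1 of 17 called, the kinase Ikbke, which fell from 8.44 to 4.81. NF-kB targets had 2 of 20 called, Gadd45b, a stress-response gene, which rose from 0.689 to 2.80, and the adhesion molecule Vcam1, which fell from 5.29 to 3.01. These 2 lists were near or under the share of all tested genes.

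Genes of the hepatocytes around the central vein, where Wnt signals maintain glutamine synthesis, were higher. Of 20 tested Wnt-driven pericentral genes, 12 rose and 0 fell, with a median effect of 0.76. Oat, ornithine aminotransferase, was 87.0 in IkkB KO and 659.8 in Double KO, beside 199.9 in WT and 194 in Shp2 KO. Lhpp, a phosphatase, was 8.54, 56.5, 17.4 and 18.7, the glutamate carrier Slc1a2 was 4.06, 24.0, 10.3 and 3.80, and glutamine synthetase (Glul) was 68.3, 246, 109.8 and 33.1. Double KO was the highest of the 4 genotypes for each of these, and IkkB KO was below WT. Tbx3, a Wnt-induced repressor, rose from 1.72 to 6.95, the ammonium carrier Rhbg from 2.02 to 6.20, and the Wnt feedback genes Axin2 and Lgr5 from 0.591 to 1.64 and from 0.212 to 0.936. Cyp2e1 (1026 and 2069, q = 0.0595) and Cyp1a2 (140.0 and 202, q = 0.122), abundant pericentral cytochromes, were not called.

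Amino acid catabolism and the urea cycle, strongest in periportal hepatocytes, had 3 of 26 tested members higher and 8 lower. Oat is among the 3 higher and is also counted in the pericentral list. The serine dehydratase Sds was 778 in IkkB KO and 304 in Double KO, beside 754 in WT and 819 in Shp2 KO. The histidase Hal fell from 332 to 144, arginase (Arg1), the last step of the urea cycle, from 1863 to 876, and the glyoxylate-detoxifying Agxt from 346 to 179.6. The list of Cyp1, Cyp2 and Cyp3a enzymes, which also counts Cyp26a1 of another family, had 9 of 23 higher and 0 lower (median 0.52). It was led by Cyp3a11, Cyp2c38 (2.43 to 31.8), Cyp2c37 (22.1 to 122) and Cyp26a1, which degrades retinoic acid (1.18 to 7.43). Nrf2 targets and glutathione transferases had 9 of 29 higher and 0 lower (median 0.46), among them Gstm3 (28.0 to 194), Gstm2 (13.8 to 62.1) and the epoxide hydrolase Ephx1 (303 to 647), while Nqo1 (7.61 and 9.91, q = 0.795) was not called.

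Lipid genes moved in opposite directions by function. Of 33 tested genes of fatty acid oxidation and PPARalpha targets, 12 rose and 1 fell (median 0.38), and of 22 genes of lipid uptake and droplets, 9 rose and 1 fell (median 0.46). Besides Cyp4a14, Aldh3a2 rose from 19.9 to 190.03, Acot1 from 1.40 to 20.5 and Cyp4a10 from 12.1 to 54.8. Pparg, the driver of fat storage, was 1.32 in IkkB KO and 10.96 in Double KO, beside 0.914 in WT and 10.3 in Shp2 KO. The fatty acid receptor Cd36 was 5.80, 31.7, 2.31 and 55.9, and Fitm1, which helps lipid droplets form, was 8.29, 57.5, 10.7 and 29.3. For these 3 genes both genotypes without Shp2 were above both with it. Ppara (33.8 and 26.2) and Cpt1a (134 and 112), the receptor and the gate of mitochondrial oxidation, were not called (q = 0.261 and 0.491).

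Fatty acid synthesis had 2 of 24 tested members higher and 11 lower (median -0.52). Thrsp, a lipogenic cofactor, was 934 in IkkB KO and 201 in Double KO, beside 797 in WT and 715 in Shp2 KO. The elongase Elovl6 fell from 43.3 to 16.2, and Lpin1 and the pyruvate kinase Pklr (265 to 96.8) fell as well. Glycolysis, gluconeogenesis and glycogen genes had 9 of 31 lower and 0 higher (median -0.23), among them Gys2, Pklr, Pfkfb3, an activator of glycolysis (5.68 to 1.37), and Ugp2, which makes UDP-glucose (183 to 74.6). For Thrsp and Sds, Double KO alone was low, since the other genotypes lay between 715 and 934 for Thrsp and between 754 and 819 for Sds.

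Cholesterol synthesis and uptake rose in 9 of 25 tested genes and fell in 2 (median 0.40). Fdps, which makes farnesyl diphosphate, rose from 145 to 275 and Acat2 from 26.0 to 49.3, but Sqle (49.3 and 50.8) was not called. Of bile acid synthesis and its control, 3 of 22 rose and 2 fell. Cyp7a1, which sets the pace of bile acid formation from cholesterol, was 24.8 in IkkB KO and 96.5 in Double KO, beside 24.6 in WT and 97.0 in Shp2 KO, and its repressor Nr0b2 (Shp, a nuclear receptor unrelated to Shp2) fell from 23.5 to 14.2. The bile salt pump Abcb11 rose from 129.7 to 303 and the uptake carrier Slc10a1 fell from 627 to 348, within a carrier list of which 6 of 20 rose and 5 fell. Taurine and sulfur amino acid enzymes had 4 of 17 higher and 0 lower, Csad and Cth (347 to 675) among them.

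Genes that differ between male and female mouse liver were split. Of 18 tested male-biased genes, 10 fell and 4 rose (median -0.90). Hsd3b5 was 88.1 in IkkB KO and 6.02 in Double KO, beside 149.6 in WT and 1.40 in Shp2 KO, and Slco1a1 was 129, 20.2, 126 and 13.8, whereas the male-biased Cyp4a12b rose from 9.83 to 112. Of 23 tested female-biased genes, 9 rose and 3 fell (median 0.35). Cyp2c69 rose from 0.304 to 14.4, Cyp2c40 from 1.01 to 12.3 and the coumarin hydroxylase Cyp2a5 from 138 to 614, and Hamp2 fell from 146 to 40.7. Cyp4a12 genes are near-identical copies, so the value of either may include reads of the other. The male-biased list also holds Mup genes, Mup1 among them, whose reads could be assigned to any copy. Its counts of higher and lower members are therefore not counts of independent genes. Growth hormone and Stat5 axis genes, known for setting sex-biased expression, had 1 of 14 higher (Socs2, 9.30 to 16.8) and 2 lower (Igfbp3, 8.89 to 2.74, and Igfbp1).

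Acute phase proteins had 6 of 28 tested members higher and 3 lower (median -0.07). Orm2 was 22.05 in IkkB KO and 174 in Double KO, beside 41.6 in WT and 627 in Shp2 KO. Saa1, a secreted amyloid precursor whose near-identical copy Saa2 may share its reads, was 127, 397, 1998 and 3003, and that copy was 58.6, 266, 1299 and 1940.2. The neutrophil gelatinase protein Lcn2 was 8.51, 26.1, 56.3 and 237. For Saa1, Saa2 and Lcn2, Double KO was above IkkB KO but below WT. The iron hormone Hamp fell from 4753 to 2460.2, and the protease inhibitors Serpina3m and Serpina3n fell from 142 to 50.2 and from 253 to 136. Of the IL-6 and Stat3 axis, 2 of 16 rose (Socs3, 7.28 to 12.2, and Fgl1) and 2 fell (Il1rap and the receptor Lifr, 68.9 to 42.0).

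Fetal and tumour markers rose in 13 of 21 tested cases with 0 falling (median 0.55). H19 was 0.166 in IkkB KO and 14.1 in Double KO, beside 0.149 in WT and 24.5 in Shp2 KO. Lgals1, a galectin, was 6.85, 43.9, 4.58 and 24.8, and annexin Anxa5 was 42.5, 171, 37.1 and 130.1. Both genotypes without Shp2 were above both with it for these genes. The fetal protein Afp rose from 0.721 to 1.49 (q = 0.0419), while Gpc3 and Igf2 were under 0.2 in both genotypes and untested.

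Cell cycle genes had 16 of 31 tested members higher and 3 lower (median 0.52). Top2a, which untangles replicated DNA, was 0.736 in IkkB KO and 2.39 in Double KO, beside 0.247 in WT and 0.870 in Shp2 KO, and Prc1, a protein of the dividing spindle, was 0.482, 2.10, 0.179 and 0.625. Double KO was the highest of the 4 genotypes for both. Mki67 rose from 0.585 to 1.68 and Cdk1 from 1.07 to 2.85, and Ccne1 fell from 2.12 to 0.695. Of 19 tested p53 targets, 5 rose and 0 fell: Cdkn1a (p21), an inhibitor of the cell cycle, was 2.73, 14.3, 11.5 and 6.38, and Gdf15, a stress cytokine, was 3.64, 10.9, 9.53 and 5.51. For these 2 genes Double KO was near WT and the single knockouts were lower.

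Endoplasmic reticulum and integrated stress genes had 6 of 27 higher and 1 lower, with Asns, asparagine synthetase, rising from 0.710 to 6.07. Yap targets had 4 of 16 higher, led by Cyr61 (3.50 to 12.5), and immediate early and heat shock genes 4 higher and 2 lower of 20, with Hspb1 rising from 3.35 to 18.8 and Nr4a1 falling from 6.44 to 0.9705. Complement and coagulation factors had 2 of 32 higher and 5 lower, led by factor XI (F11, 65.7 to 17.7). Liver transcription factors and nuclear receptors had 2 of 24 higher, Pparg and Ahr (2.18 to 4.84). Chemokines and receptors had 1 of 17 higher and 2 lower, and death receptor and Bcl2 family genes 1 higher and 1 lower of 21. Of all tested genes, 5.75% rose and 5.62% fell, and the death receptor and Bcl2 family counts lay under both shares. The respiratory chain had 0 of 23 called, with 0 at an unadjusted p-value under 0.05 and 0 with the Benjamini-Hochberg adjustment over this pair.

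The effect of Shp2 loss without IkkB was set beside its effect with IkkB present, Shp2 KO against WT, a comparison that uses the other 6 hepatocyte samples. In that comparison 1408 of 12076 tested genes were called (11.7%), 861 higher (7.13%) and 547 lower (4.53%). Among 10337 genes tested in both with a value of at least 1, the 2 effects had a Pearson correlation of 0.49 and a Spearman correlation of 0.40 across genes, which are not independent replicates. Of these genes, 541 were called in both, or 46.6% of the 1161 called here and 46.8% of the 1157 called in Shp2 KO. The direction was the same for 489 of the 541 (90.4%), of which 270 were higher and 219 lower. It was the same for 907 of the 1161 called here (78.1%), and for 64.8% of all 10337 genes. Ly6d (4.19 here and 4.33 in Shp2 KO against WT), Cyp7a1 (1.92 and 1.94), Mup1 (-4.40 and -4.65) and Dusp6 (-1.41 and -1.13) had effects of like size in both.

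The direction was opposite for 52 genes, 26 each way. Arntl (1.44 and -1.21), Nfil3 (1.60 and -1.06), Glul (1.84 and -1.70), Slc1a2 (2.31 and -1.24), Elovl3 (1.59 and -1.91) and Cdkn1a (2.04 and -0.76) rose where IkkB was missing and fell where it was present. Per1 (-0.85 and 0.57), Usp2 (-1.37 and 1.18), Ccrn4l (-1.48 and 1.11), Dcn (-1.01 and 0.89) and Marco (-1.44 and 2.89) did the reverse. By list, 0 of 19 pericentral genes rose and 4 fell in Shp2 KO against WT, where 12 of 20 rose here, and 1 of 22 clock genes rose and 5 fell there, where 3 rose and 13 fell here. Of female-biased genes, 21 rose and 1 fell of 27 in Shp2 KO against WT, where 9 rose and 3 fell of 23 here. Of 19 macrophage markers, 15 rose and 0 fell in Shp2 KO, where 2 rose and 3 fell here. Their summed level was 176 in WT and 366 in Shp2 KO, against 454 in IkkB KO and 451 in Double KO. None of these differences between the comparisons was tested.

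The largest differences between the 2 effects have no test, since no replicate values were there to make one. Effects here exceeded those in Shp2 KO most for Gm4841 (0.961 in IkkB KO and 9.81 in Double KO, against 18.5 in WT and 1.08 in Shp2 KO), for Rpl29, which was listed at 0.182 in Shp2 KO and between 28.7 and 43.2 in the other genotypes, and for Scara5, Glul, Slc1a2, Elovl3, Oat and Cdkn1a, with differences from 2.80 to 5.69. On the other side were Cyp2b9, Rgs16, Marco, Cyp2a4, Dbp, A1bg, Ubd and Ciart, with differences from -5.93 to -2.80. Cyp2b9, a female-biased cytochrome, was 0.165 in WT and 53.9 in Shp2 KO but 2.47 in IkkB KO and 1.67 in Double KO.

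**Figure D4:**
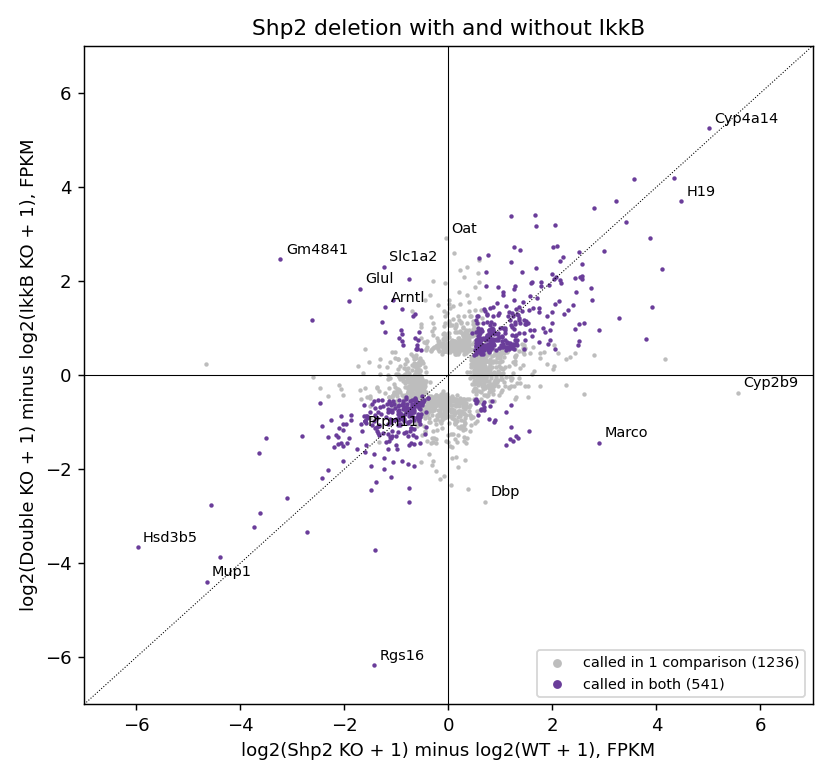
Each point is a gene called in at least 1 of 2 hepatocyte comparisons, with the effect of Shp2 KO against WT on the horizontal axis and of Double KO against IkkB KO on the vertical axis, both as differences of log2(FPKM + 1); the dotted line marks equal effects. The 541 genes called in both (purple) lie mostly in the lower left and upper right corners of the plot, while Glul, Slc1a2, Arntl and Gm4841 lie in the upper left and Marco in the lower right.

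The same pair of genotypes was measured in whole liver, in separate libraries and a separately made table, so effects and not levels are compared across the tables. In whole liver 2459 of 12925 tested genes were called (19.0%), 1489 higher (11.5%) and 970 lower (7.50%). Among 10406 genes tested in both tables with a value of at least 1, the Pearson correlation of the effects was 0.57 and the Spearman correlation 0.48 across genes. In all, 763 genes were called in both, or 63.4% of the 1203 called in hepatocytes and 41.6% of the 1834 called in whole liver, and 729 of them (95.5%) went in the same direction. The direction was shared by 1062 of the 1203 called in hepatocytes (88.3%), and by 66.0% of all 10406 genes. Hepatocyte and liver effects were -6.18 and -6.42 for Rgs16, 5.25 and 4.87 for Cyp4a14 and -4.40 and -4.01 for Mup1. Liver Ptpn11 was 10.1 in IkkB KO and 6.09 in Double KO.

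Several groups differed between the preparations in how many members were called, and these differences have no test. Pericentral genes had 4 higher and 3 lower of 20 in whole liver (median 0.03), where Glul was 487 in IkkB KO and 555 in Double KO (q = 0.821 in the authors' deposited table) and Tbx3 was 7.47 and 7.78. Class II genes were not called in liver, with Cd74 at 193 and 199 and H2-Eb1 at 55.0 and 48.9 (q = 0.961 and 0.742), while interferon-gamma induced genes fell in both preparations, 15 of 18 in liver, including Igtp (92.2 to 26.8). Macrophage markers rose in 15 of 19 cases in liver with 0 falling, stellate markers in 9 of 20 with 1 falling, against 2 higher and 3 lower and 1 higher and 7 lower in hepatocytes. The clock had 2 higher and 10 lower of 21 in liver, where Per2 fell from 14.4 to 5.18 and Dbp from 146 to 82.3. Ras-Erk feedback genes and targets had 3 higher and 4 lower of 17 in liver (median -0.01). Type I interferon response genes had 3 higher and 0 lower of 22 there (median 0.06). Liver H19 rose from 0.549 to 411, Saa1 from 122 to 1474 and Orm2 from 22.8 to 649.6. Cyp1, Cyp2 and Cyp3a enzymes had 4 higher and 9 lower of 23 in liver, and Cyp2c29, a drug-metabolising cytochrome singled out after its values were seen, rose from 205 to 509.9 in hepatocytes and fell from 843 to 467 in liver.

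**Figure D5:**
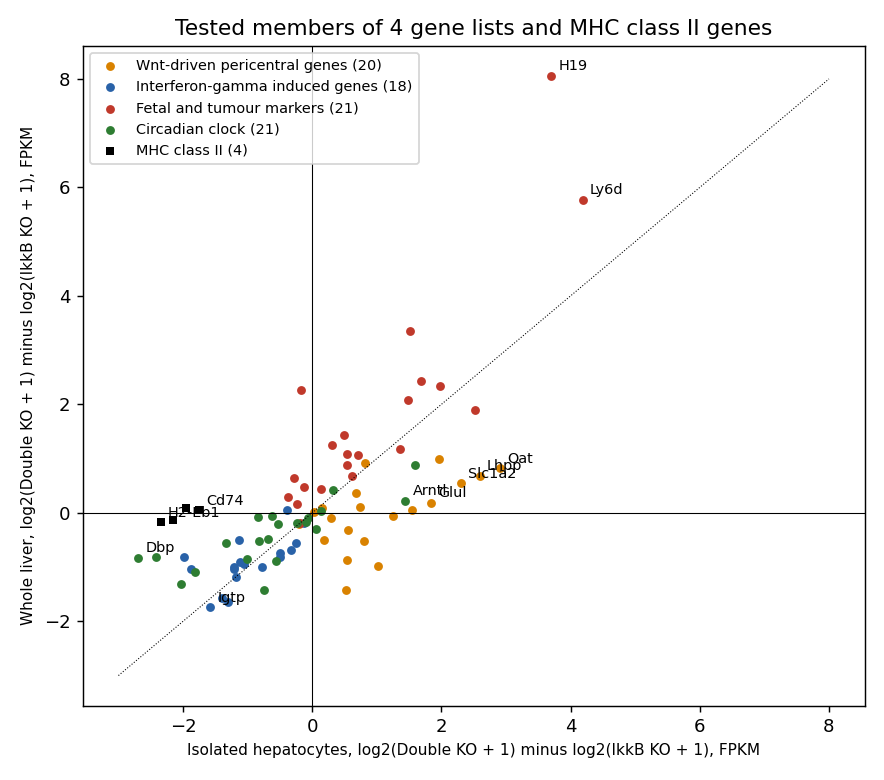
Effects of Double KO against IkkB KO in isolated hepatocytes (horizontal) and in whole liver (vertical), as differences of log2(FPKM + 1), for the members of 4 gene lists and the class II genes that were tested in both tables; the dotted line marks equal effects. Pericentral genes such as Glul and Oat lie to the right near the liver's zero line, class II genes lie to the left of it, interferon-gamma induced genes lie low in both, and H19 and Ly6d lie above the line.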

How the data were processed

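PolyA RNA of 24 mouse samples, 8 groups of 3, was sequenced from TruSeq v2 libraries, with an RNeasy Plus Micro kit used for hepatocyte RNA, per the labels' protocols. FastQC, Cuffdiff and build mm9 are listed in the submitters' processing notes. Since aligner, annotation, strandedness and versions were not given in the sources used here, overlapping, antisense and near-identical genes are uncertain. The authors deposited 1 table for hepatocytes and 1 for liver, whose IKO, SKO and DKO entries were read as IkkB KO, Shp2 KO and Double KO. The levels the authors deposited have no unit in the header and were read as FPKM, by Cuffdiff's convention; there is 1 per gene and genotype with 0 columns per sample. The log2 ratios and the score (test statistic) that the authors deposited were left aside. Replicate error enters only through the p-value and q-value that the authors deposited for each pair. Adjusting the p-values of the 5 hepatocyte pairs together did not give back the deposited q-values (largest difference 0.284).

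Kept were genes with status OK whose larger value reached 0.1, 12321 of 24319. The status of 11972 others was NOTEST and of 26 HIDATA (too abundant). Calls used a q-value under 0.05, and effects used a pseudocount of 1. Computation used Python 3.11.15 with pandas 2.3.3, matplotlib 3.10.9, numpy 2.4.6 and scipy 1.17.1. The calling code was tested on simulated data of 12321 genes with 200 changed.

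The comparison, the 49 gene lists (11 of cell type markers) and the alternatives were chosen with earlier results of these data known. The genes named by rule were Ptpn11 and Ikbkb, up to 4 called members per list (smallest q-value first, then largest effect), the 12 strongest changes in each direction among genes that reached 1, the 8 largest differences each way from Shp2 KO against WT, the clock and Ras-Erk feedback lists, and the neighbours of the threshold. Other list members were given as examples chosen after their values were seen: Agxt, Ahsg, Alb, Apoa1, Arg1, Axin2, Ccne1, Ccrn4l, Cdk1, Col1a1, Cpt1a, Cyp1a2, Cyp2c29, Cyp2e1, Egfr, Folr2, Gpc3, Hamp, Hamp2, Ifng, Igf2, Irgm2, Lgr5, Lrat, Nqo1, Ppara, Psmb8, Rhbg, Serpina1a, Serpina3m, Serpina3n, Slc10a1, Sqle, Tap1, Tbx3, Trf, Usp2 and Xaf1. Promoter windows of 300 bases came from RefSeq (GRCm38.p6). Alternatives were other filters, pseudocounts and thresholds, centring, and Benjamini-Hochberg adjustment over this pair alone.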

Additional observations from a re-analysis of the deposited data

How the results depend on the processing

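Of the 1402 calls (709 higher, 693 lower), 856 passed a q-value under 0.01 (449 higher, 407 lower). With an absolute log2 effect of at least 1 as well, 368 remained at a pseudocount of 1 (195 and 173) and 701 at 0.1 (383 and 318). Benjamini-Hochberg adjustment over this pair alone gave 1061. Of 196 named genes, 17 lost their call there. Among them were Dbp, Cry1, Npas2, Myc (Cuffdiff p adjusted to 0.107), Dusp4 (0.0571), Afp (0.0934), Lifr (0.0977) and Clec9a (0.0981), and, outside the naming rule, Egfr (0.0667) and Folr2 (0.0506). With a filter of at least 1, which leaves fewer members, 4 list medians changed sign. That of bile duct markers went from 0.16 to -0.21. Those near 0 were the Shp2 adaptors and Ras-Erk kinases (-0.06 to 0.0067), the IKK, Rel and IkB genes (0.02 to -0.02) and the IL-6 and Stat3 axis (-0.05 to 0.0047). At a pseudocount of 0.1 the median was -0.59 for Ras-Erk feedback, 1.17 for pericentral genes, 1.13 for fetal and tumour markers, 0.95 for the cell cycle, -0.54 for growth factor and insulin receptors and -0.54 for stellate markers. With a filter of at least 1 it was -0.58 for Ras-Erk feedback, 1.36 for fetal and tumour markers, -0.44 for stellate markers and -0.37 for bile acid and organic anion carriers. The medians of the bile duct, neutrophil, T and NK, B and plasma, dendritic and erythroid lists, of 2 to 10 tested members, also moved by over 1.5 times at a pseudocount of 0.1. No paired analysis was possible because the tables hold no value per replicate, and leaving out replicates was not run for the same reason. Depth is unknown, so what it limits cannot be given.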

Other observations

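The genes that went in opposite directions in hepatocytes and whole liver, for the same 2 genotypes, were few, 34 of the 763 called in both. Of these, 24 fell in hepatocytes and rose in whole liver, and they include matrix genes (Bgn, Col14a1, Postn, Prelp and Sparcl1), the hepatocyte growth factor gene Hgf, which non-parenchymal liver cells make, the adhesion molecule Vcam1 and the scavenger receptor Marco. The other 10 rose in hepatocytes and fell in whole liver, among them the cytochromes Cyp2c29 and Cyp2c50, the Wnt antagonist Notum and the secreted hepatocyte protein Lect2. These genes were singled out after their values were seen, and the part of other liver cells in them was not tested.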
